A study of Homo sapiens with 6 samples.

Results

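GDF15, INPP5D, DNAI3 and PLA2G4C are 4 of the 58336 genes counted in A2780 cells, an established ovarian cancer line, and they were chosen because their RNA rose among the most after treatment with TH588, an inhibitor of the nucleotide-cleaning enzyme MTH1 that also stalls cells in mitosis. The rule took genes by their difference between TH588 and DMSO among well-counted genes, here those whose mean log2 CPM reached 2, where CPM is the count per 1000000 reads of a library's total after TMM scaling. The differences between the treatments are therefore described without a test for these 4 genes, and the tests given below concern other genes.

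The control group was 3 samples of A2780 cells given the DMSO vehicle, and the treated group was 3 samples of the same cells given 6 µM TH-588 for 48 h, with replicates A, B and C in each. No gene was altered in either group, and the data hold 1 cell line, 1 dose and 1 time. PolyA RNA was sequenced to 28537837 counts in TH588 replicate A and to between 77634048 and 99074175 in the other 5 libraries, and SNORD3A, a small nucleolar RNA, held 21.9% of the reads of TH588 replicate A against 7.68% to 12.95% in the others. The labels call the tissue ovarian, yet 7 of 9 epithelial and ovarian tumour markers, including KRT7, CDH1 and PAX8, stayed under 0.3 CPM in every library. The other 2 were called higher after TH588, EPCAM (0.644 ± 0.212 to 4.74 ± 0.350 CPM) and KRT18 (3.56 ± 0.373 to 6.54 ± 0.435 CPM). The design text says that the experiment was done 3 independent times for each treatment, without saying which replicates share a run, and 6 samples are analysed here.

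The 4 genes have unrelated functions. GDF15 is a secreted, stress-induced cytokine of the TGF-beta superfamily that signals through the receptor GFRAL with the kinase RET in the brainstem, where it lowers appetite, and it is a long-known target gene of p53. INPP5D encodes SHIP1, a phosphatase that removes a phosphate from the PI3K product phosphatidylinositol trisphosphate, and it is known mostly from blood cells. DNAI3, also known as WDR63, encodes an intermediate chain of the inner dynein arm that helps cilia and sperm tails to beat, and it has also been described as a p53 target that binds the actin-branching Arp2/3 complex. PLA2G4C encodes cytosolic phospholipase A2 gamma, which frees fatty acids such as arachidonate from membrane phospholipids and, unlike its relative PLA2G4A, does not need calcium.

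On GRCh38, GDF15 (ENSG00000130513) lies on the plus strand at chr19:18374731-18389176 with 2087 exon bases in 5 exon intervals. INPP5D (ENSG00000168918) lies on the plus strand at chr2:233059967-233207903 with 8681 exon bases in 31 intervals. DNAI3 (ENSG00000162643) lies on the plus strand at chr1:84999147-85133138 with 3923 exon bases in 24 intervals. PLA2G4C (ENSG00000105499) lies on the minus strand at chr19:48047843-48110817 with 6613 exon bases in 24 intervals.

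Promoters of 3 of the 4 genes were matched in the RefSeq table for GRCh38.p14, and PLA2G4C had no entry. The 250 bases before each RefSeq start are shown because the genes rose together, so that a reader can compare what stands before their starts. Capitals mark CCAAT (or ATTGG, its reverse complement) and TATAAA in GDF15, AGGAAGT in INPP5D, and TGACGTCA and CCAAT in DNAI3.
GDF15, chr19:18385908-18386157, plus strand: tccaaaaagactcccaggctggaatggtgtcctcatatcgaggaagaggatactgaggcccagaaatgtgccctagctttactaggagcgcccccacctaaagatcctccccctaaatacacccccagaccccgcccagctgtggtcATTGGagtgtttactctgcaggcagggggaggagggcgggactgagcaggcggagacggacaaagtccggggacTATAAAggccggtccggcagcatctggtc
INPP5D, chr2:233060092-233060341, plus strand: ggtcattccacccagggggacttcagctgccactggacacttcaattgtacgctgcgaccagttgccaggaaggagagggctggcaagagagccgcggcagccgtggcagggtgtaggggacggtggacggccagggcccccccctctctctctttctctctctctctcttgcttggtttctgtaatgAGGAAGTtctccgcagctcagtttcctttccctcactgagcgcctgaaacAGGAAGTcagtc
DNAI3, chr1:85062077-85062326, plus strand: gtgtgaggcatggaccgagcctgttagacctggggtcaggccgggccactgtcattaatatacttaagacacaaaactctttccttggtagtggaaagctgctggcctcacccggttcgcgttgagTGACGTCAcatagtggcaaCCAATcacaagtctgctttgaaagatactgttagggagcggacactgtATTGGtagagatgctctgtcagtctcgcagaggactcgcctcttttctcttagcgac

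The 3 promoters differed in the short motifs they held. The motifs were chosen after the sequences had been seen and were searched on both strands of the 300 bases from 250 before to 50 after each start, in these genes and in all 35116 promoters of the table. GDF15 held the TATA box TATAAA, 29 bases before its start, as did 11.5% of all promoters. INPP5D held the ETS core AGGAAGT at 62 and 12 bases before its start, a motif present in 8.24% of all promoters. DNAI3 held the cyclic AMP response element TGACGTCA 124 bases before its start, which 1.85% of all promoters held. CCAAT or its reverse complement stood in GDF15 and DNAI3, 103 bases before the start of GDF15 and 105 and 57 bases before that of DNAI3, and in 34.6% of all promoters. The GC box GGGCGG was found in GDF15 and INPP5D and in 45.0% of all promoters. Neither the AP-1 site TGAGTCA, in 4.95% of promoters, nor the amino acid response element TTGCATCA, in 0.866%, was found in any of the 3. GC content was 59.3% in GDF15, 60.3% in INPP5D and 52.7% in DNAI3, against a median of 58.7%.

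The p53 consensus site was also searched, as 20 bases made of adjoining 10-base parts with the C and G of each core kept. In the 10000 bases on either side of each of the 3 starts, only GDF15 held a match with at most 2 mismatches, and 15.3% of 35116 such windows held one. The match lies 850 bases before the start, and it is shown with the core of each part in capitals because GDF15 is a known p53 target.
GDF15, chr19:18385308-18385327, plus strand: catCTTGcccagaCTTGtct
With at most 1 mismatch no match was found at the 3 genes, and 2.45% of the windows held one. In the shorter promoter window, GDF15 held a match with 3 mismatches that begins 29 bases after the start, as 1.12% of all promoters did with at most 3. The RefSeq starts do not coincide with the starts of the counted gene models, from which they lie 11.4 kb downstream in GDF15, 375 bases in INPP5D and 63.2 kb in DNAI3. Exons of the counted models cover 241 of the 250 bases printed for GDF15, all 250 for INPP5D and 15 for DNAI3.

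GDF15 had 140, 122 and 114 counts in the DMSO libraries, in the order A, B, C, and 1987, 10513 and 6853 in the TH588 libraries. In CPM these were 1.70, 1.48 and 1.22 with DMSO and 74.2, 96.6 and 82.1 with TH588. The lowest treated library was 43.6 times the highest control library. GDF15 thus went from 1.47 ± 0.243 to 84.3 ± 11.4 CPM (mean ± SD, n = 3), which is 57.7-fold or 5.85 on the log2 scale (standard error 0.15). In bulk RNA a change in the number of cells that express a gene and a change in RNA per cell cannot be told apart.

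INPP5D had 96, 57 and 54 counts in the DMSO libraries and 452, 2020 and 1772 in the TH588 libraries. Its levels were 1.17, 0.691 and 0.577 CPM with DMSO and 16.9, 18.6 and 21.2 CPM with TH588. DMSO replicate A stood above the other control libraries, and the highest control was 2.03 times the lowest. The mean went from 0.812 ± 0.314 to 18.9 ± 2.19 CPM (mean ± SD, n = 3), which is 23.4-fold or 4.55 on the log2 scale (standard error 0.22). Without DMSO replicate A the log2 fold change was 4.92, the highest value with any library left out.

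DNAI3 had 121, 131 and 122 counts with DMSO and 764, 2815 and 2485 with TH588. Its levels were 1.47, 1.59 and 1.30 CPM in the control libraries and 28.5, 25.9 and 29.8 CPM in the treated libraries, which differed by at most 1.15-fold. The mean went from 1.45 ± 0.143 to 28.1 ± 1.99 CPM (mean ± SD, n = 3), which is 19.3-fold or 4.27 on the log2 scale (standard error 0.13).

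PLA2G4C had 95, 84 and 139 counts with DMSO and 524, 1665 and 1247 with TH588. Its levels were 1.16, 1.02 and 1.48 CPM with DMSO and 19.6, 15.3 and 14.9 CPM with TH588. TH588 replicate A was the highest treated library and DMSO replicate C the highest control library. The mean went from 1.22 ± 0.239 to 16.6 ± 2.58 CPM (mean ± SD, n = 3), which is 13.5-fold or 3.75 on the log2 scale (standard error 0.17).

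**Figure D1:**
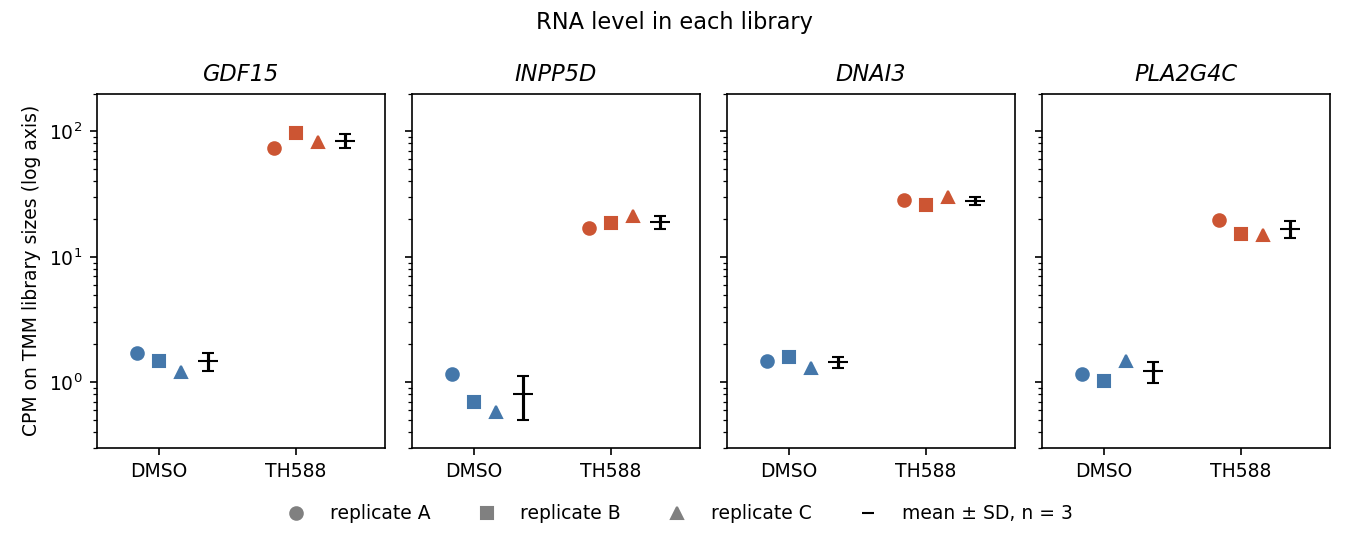
RNA level of GDF15, INPP5D, DNAI3 and PLA2G4C in each library, as CPM on a log axis, with DMSO in blue and TH588 in red. Symbols mark replicates A, B and C and black bars the mean ± SD (n = 3). All DMSO libraries sit between 0.577 and 1.70 CPM, and the TH588 libraries sit between 14.9 and 96.6 CPM.

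For all 4 genes every TH588 library was above every DMSO library. The same held for 28.7% of the 15844 genes tested, and 49.6% of them were called by edgeR's quasi-likelihood test at an adjusted p under 0.05 (Benjamini-Hochberg), 24.2% as higher and 25.3% as lower. The 4 genes were chosen on this contrast, so these shares only give its background. Among the 9762 well-counted genes GDF15 had the largest rise, whereas 2 such genes rose more than INPP5D, 3 more than DNAI3 and 4 more than PLA2G4C. The 4 genes count as well-counted only through their TH588 libraries, since none exceeded 1.70 CPM with DMSO. Their place in this set thus depends on the rise itself. The well-counted gene above INPP5D beside GDF15 was CDKN1A, which encodes the cell cycle inhibitor p21 and went from 5.35 ± 0.460 to 139.8 ± 24.7 CPM (mean ± SD, n = 3), or 4.71 on the log2 scale. Over all genes tested, including rarer ones, 13 had a larger rise than GDF15 and 60 a larger rise than PLA2G4C. The gene just outside the selection was LIF, a cytokine of the interleukin-6 family, at 1.01 ± 0.153 and 12.5 ± 3.14 CPM and a log2 fold change of 3.62 (standard error 0.20), beside 3.75 for PLA2G4C.

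**Figure D2:**
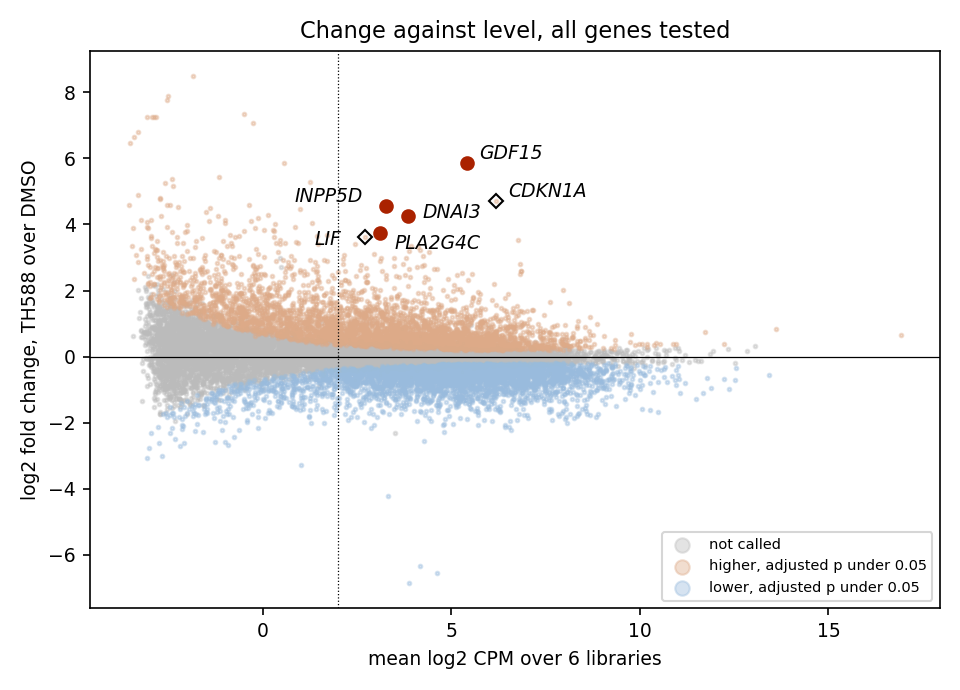
Log2 fold change (TH588 over DMSO) of each of the 15844 genes tested against its mean log2 CPM over the 6 libraries, coloured by the edgeR call. Filled circles mark GDF15, INPP5D, DNAI3 and PLA2G4C, open diamonds mark CDKN1A and LIF, and the dotted line is a mean log2 CPM of 2. The 5 highest points to the right of that line are GDF15, CDKN1A, INPP5D, DNAI3 and PLA2G4C.

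Set per kilobase of exon, so that genes of different length can be compared, the 4 genes had a clear order in cells given DMSO. GDF15 was at 0.703 ± 0.117 CPM per kilobase, DNAI3 at 0.371 ± 0.0365, PLA2G4C at 0.184 ± 0.0362 and INPP5D at 0.0935 ± 0.0362 (SD, n = 3 each), and no neighbours in this order overlapped. Within DMSO replicates A, B and C, PLA2G4C was 1.30, 1.93 and 3.38 times INPP5D. After TH588 the levels were 40.4 ± 5.45 for GDF15, 7.15 ± 0.508 for DNAI3, 2.51 ± 0.390 for PLA2G4C and 2.18 ± 0.252 for INPP5D, in CPM per kilobase (SD, n = 3 each). The last 2 no longer differed beyond their spread, since PLA2G4C was 1.52, 1.08 and 0.924 times INPP5D in replicates A, B and C. GDF15 was 2.17, 1.75 and 1.76 times DNAI3 in the DMSO libraries and 4.89, 7.02 and 5.18 times in the TH588 libraries.

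Among the genes tested, ranked by CPM per kilobase, GDF15 went from percentile 33.0 to percentile 95.2, averaged over the libraries of a group. DNAI3 went from percentile 25.3 to 73.0, PLA2G4C from 17.6 to 51.8 and INPP5D from 11.5 to 49.0. In TPM, which also scales for length but has the short SNORD3A in its total, the group means went from 1.70 to 90.9 for GDF15, from 0.889 to 15.7 for DNAI3, from 0.443 to 5.42 for PLA2G4C and from 0.230 to 4.85 for INPP5D.

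In DMSO, replicates of all 4 genes varied more than the median of genes with a mean log2 CPM within 0.5 of theirs. The coefficient of variation of INPP5D in DMSO was 38.7%, against a median of 8.19% over 1694 such genes and 12.0% from counting error alone at its mean count. That of GDF15 in DMSO was 16.6% (median 5.25% over 1967 genes, counting error 8.93%), and that of PLA2G4C was 19.6% (median 8.53% over 1630 genes, counting error 9.71%). DNAI3 was the steadiest, at 9.86% in DMSO (median 7.13% over 1806 genes, counting error 8.96%) and 7.10% in TH588 (median 9.95%). These like genes are matched on the mean of both groups, so most had more counts in DMSO than the 4 genes did. In TH588 the coefficients were 13.5% for GDF15, 11.6% for INPP5D and 15.5% for PLA2G4C, beside medians of 8.78%, 10.7% and 10.8%.

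Other genes overlap all 4 gene models, and the kit named in the labels (TruSeq RNA v2) does not mark strand. MIR3189 within GDF15 and RN7SL32P within INPP5D had 0 counts in every library. PLA2G4C shares 326 exon bases, 4.93% of its own, with the antisense gene PLA2G4C-AS1, which had 3 counts in TH588 replicate B and 0 elsewhere. MCOLN3, a lysosomal calcium channel gene on the opposite strand, lies within the DNAI3 model but shares 0 exon bases with it. It rose from 9.99 ± 0.677 to 21.6 ± 3.46 CPM, or 1.10 on the log2 scale (adjusted p = 1.89e-05).

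The genes next to each of the 4, taken as the nearest 3 tested genes on either side, moved in both directions. Of these 24 neighbours 9 were higher, 6 were lower and 9 did not pass, with a median log2 fold change of 0.25, beside 24.2% of all genes higher, 25.3% lower and an overall median of 0.02. PGPEP1, a peptidase gene 4.8 kb from GDF15, rose from 2.45 ± 0.268 to 9.40 ± 1.70 CPM (log2 fold change 1.93, adjusted p = 1.24e-06). JUND, an AP-1 transcription factor gene 93.1 kb away, rose by a log2 fold change of 1.27 (adjusted p = 2.71e-06), while LSM4 between them fell by 0.36 (adjusted p = 0.00355). NGEF, 46.7 kb from INPP5D, rose by 1.36 on the log2 scale (adjusted p = 2.26e-06), whereas the autophagy gene ATG16L1, 2.1 kb beyond the other end, fell by 0.45 (adjusted p = 0.000378).

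Beside DNAI3 the lysosomal channel gene MCOLN2, 2.0 kb away, fell by 0.45 on the log2 scale (adjusted p = 0.00653), and the lysophosphatidic acid receptor gene LPAR3, 105.9 kb away, fell by 0.95 (adjusted p = 0.00298). LIG1, which encodes the DNA ligase of replication and lies 4.6 kb from PLA2G4C, went from 165.2 ± 13.4 to 116.4 ± 18.5 CPM (log2 fold change -0.50, adjusted p = 0.00233). EHD2, 304.7 kb away, was at 0.0729 ± 0.0437 and 0.244 ± 0.112 CPM (log2 fold change 1.80, adjusted p = 0.0299), and that call was lost without DMSO replicate A or C and without TH588 replicate B or C.

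**Figure D3:**
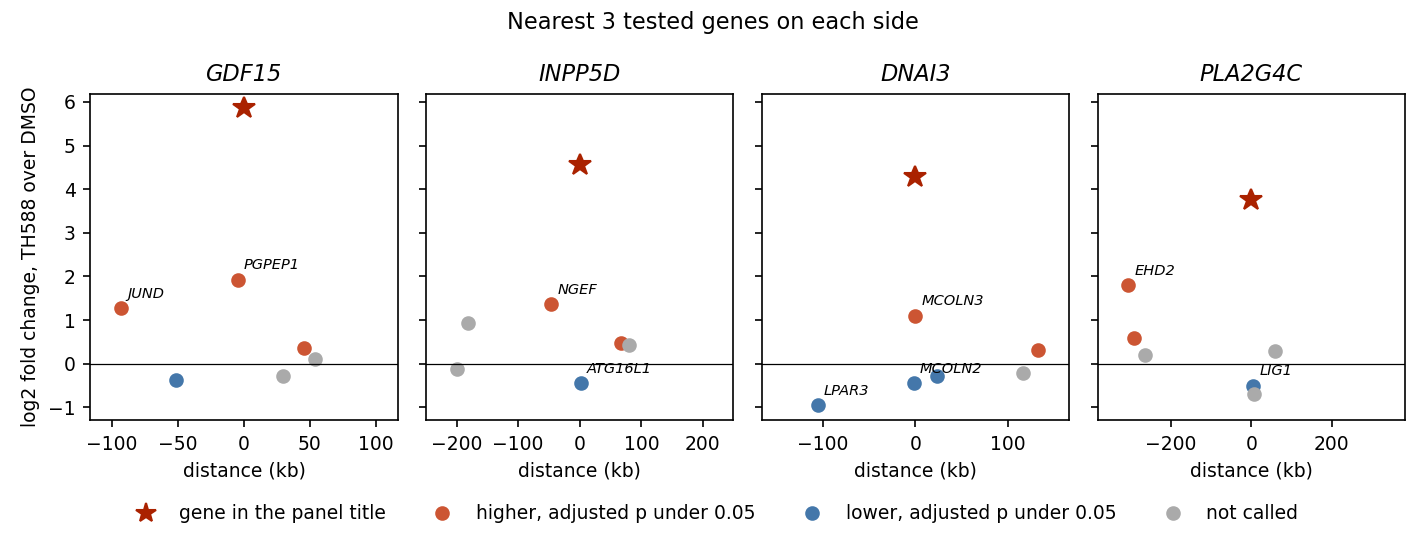
Log2 fold change (TH588 over DMSO) of the nearest 3 tested genes on each side of GDF15, INPP5D, DNAI3 and PLA2G4C, against the distance between gene bodies in kb, negative toward lower coordinates. The star is the gene in the panel title, and colours give the edgeR call. PGPEP1 at 1.93 is the highest of the 24 neighbours, below all 4 stars.

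The other ligands of the GDF15 family changed by less. Of 32 other ligands of the TGF-beta superfamily 15 were tested, and 5 were higher and 2 were lower (24.2% and 25.3% of all genes tested) and 8 did not pass, so that the share called was near the 49.6% of all genes, with a median log2 fold change of 0.11. INHA, the inhibin alpha subunit, was at 0.426 ± 0.129 and 1.08 ± 0.310 CPM (log2 fold change 1.30, adjusted p = 0.00623), and BMP4 at 0.361 ± 0.0587 and 0.823 ± 0.111 CPM (1.17, adjusted p = 0.00781). INHBE, an activin subunit, followed (1.03, adjusted p = 0.0473), and its call was lost without DMSO replicate A or B and without TH588 replicate B or C. TGFB1 fell from 86.7 ± 5.92 to 66.8 ± 5.23 CPM (log2 fold change -0.37, adjusted p = 0.00346), and GDF11 went from 4.89 ± 0.238 to 3.72 ± 0.397 (-0.38, adjusted p = 0.0347), a call that held only without TH588 replicate B among the 6 fits with a library left out. Without TH588 replicate B the family had 4 calls in place of 7.

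GFRAL, the receptor of GDF15, had at most 2 counts in any library, or 0.0214 CPM, and was not tested. A count of 0 allows up to 3 counts, which is 0.0276 CPM in the deepest library and 0.112 in TH588 replicate A. RET was at 3.09, 2.63 and 2.69 CPM with DMSO and at 1.76, 2.78 and 1.53 CPM with TH588, and TH588 replicate B lay among the controls (log2 fold change -0.45, adjusted p = 0.115). Without TH588 replicate B the value for RET was -0.79 and passed. FURIN, the convertase that cleaves precursors of many such ligands, was at 16.5, 13.2 and 13.1 CPM with DMSO and at 26.9, 29.5 and 26.8 CPM with TH588 (log2 fold change 0.96, adjusted p = 1.89e-05). Of the 16 tested receptors and convertases 4 were higher, among them ENG (1.20, adjusted p = 0.00113) and ACVR2B (1.11, adjusted p = 1.49e-06), and 4 were lower, among them TGFBR3 (-0.88, adjusted p = 2.02e-06), PCSK6 (-0.59, adjusted p = 0.000767) and PCSK7 (-0.47), which is near the shares of all genes (24.2% higher and 25.3% lower).

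The phosphatases related to INPP5D went both ways. Of 12 tested 5 were higher and 4 were lower (24.2% and 25.3% of all genes tested) and 3 did not pass, with a median log2 fold change of 0.02. Its closest relative INPPL1, which encodes SHIP2, was at 80.1, 81.3 and 77.5 CPM with DMSO and at 81.7, 94.3 and 93.3 CPM with TH588 (log2 fold change 0.17, adjusted p = 0.0946). INPPL1 passed without TH588 replicate A, at 0.25. The largest rises among the phosphatases were those of INPP5K (0.70, adjusted p = 0.000284), INPP4B (0.61, adjusted p = 4.88e-05) and INPP5B (0.53, adjusted p = 0.000417), and the largest falls those of INPP5A (-0.96, adjusted p = 1.15e-06), SYNJ2 (-0.84, adjusted p = 1.47e-05) and INPP5E (-0.48).

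The kinases that make the SHIP1 substrate and the AKT kinases that bind it were called about as often as all genes (49.6%). Of 10 tested PI3K and AKT genes 2 were higher, PIK3R3 (0.85) and the catalytic subunit gene PIK3CA (0.40), and 3 were lower. AKT1 fell from 154.3 ± 17.5 to 94.2 ± 13.9 CPM (log2 fold change -0.71, adjusted p = 0.000248), PIK3R1 by 0.51 on the log2 scale and PIK3CB by 0.30.

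INPP5D is best known from blood cells, so markers of those cells were read beside it. PTPRC, the pan-leukocyte gene that encodes CD45, had at most 10 counts in any library (0.107 CPM), SPI1 did not exceed 0.224 CPM, and CD48, LCP2 and CD3E had 0 counts in all 6 libraries. Of 19 blood cell markers 9 stayed under 0.3 CPM in every library, 10 were tested and 8 were higher, against 24.2% of all genes tested. Among these TYROBP went from between 0.107 and 0.327 CPM in the DMSO libraries to between 1.42 and 2.20 CPM in the TH588 libraries (log2 fold change 3.26). The summed level of the list was 18.4 to 21.8 CPM with DMSO and 27.9 to 33.2 CPM with TH588. Its largest contributors were CD37, called higher (7.84 ± 1.10 to 13.8 ± 2.18 CPM), and CORO1A, not called (7.21 ± 0.902 to 5.98 ± 1.13 CPM). The part of these markers in the level of INPP5D was not tested.

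Some other dynein genes rose beside DNAI3. Of 16 tested chains of the axonemal dyneins 6 were higher and 1 was lower (24.2% and 25.3% of all genes tested) and 9 did not pass, with a median log2 fold change of 0.56. DNALI1, a light intermediate chain of inner arms, was at 0.0983 ± 0.0302 and 0.591 ± 0.1249 CPM (log2 fold change 2.60, adjusted p = 0.000344). The heavy chain gene DNAH12 was at 0.1004 ± 0.0135 and 0.310 ± 0.0441 CPM (1.64, adjusted p = 0.0124), and DNAH2 at 0.362 ± 0.169 and 1.001 ± 0.0505 CPM (1.46, adjusted p = 0.00426). DNAH11, an outer arm heavy chain gene, fell from 1.43 ± 0.197 to 0.675 ± 0.185 CPM (adjusted p = 0.00598). DNAH12 lost its call without TH588 replicate B or C. Among better counted heavy chain genes, DNAH10 (3.77 ± 0.224 to 7.21 ± 0.941 CPM, log2 fold change 0.95, adjusted p = 0.000112) and DNAH1 (7.32 ± 0.393 to 13.9 ± 0.1598 CPM, 0.93, adjusted p = 1.83e-05) rose as well. The best counted one, DNAH14, was not called (97.0 ± 6.53 to 113.8 ± 12.1 CPM, 0.23, adjusted p = 0.0559).

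DNAI4, another intermediate chain of an inner arm, was at 2.03, 2.06 and 1.57 CPM with DMSO and at 4.07, 2.37 and 2.61 CPM with TH588 (log2 fold change 0.64, adjusted p = 0.0309). TH588 replicate A stood above the other libraries, and the call was lost without it, at 0.41, and also without DMSO replicate C, at 0.54. The outer arm gene DNAI1 was at 0.139 ± 0.0497 and 0.338 ± 0.129 CPM (adjusted p = 0.0733), and DNAI2 had at most 1 count in any library and was not tested. Among all tested genes with a mean log2 CPM under 2, 24.2% were higher and 7.32% were lower.

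Factors that assemble or dock dynein arms went both ways, with 5 higher, 6 lower and 6 not called of 17, beside 24.2% higher and 25.3% lower of all genes. ODAD1, a docking complex subunit, rose from 0.796 ± 0.254 to 4.70 ± 0.594 CPM (log2 fold change 2.56, adjusted p = 2.81e-06), and DNAAF3 by 0.93 and LRRC56 by 0.75 on the log2 scale. ODAD2, a subunit of the same complex as ODAD1, fell from 2.73 ± 0.212 to 1.30 ± 0.233 CPM (log2 fold change -1.04, adjusted p = 0.000655). RUVBL1, an ATPase with many roles beyond dynein assembly, fell from 162.2 ± 4.83 to 93.3 ± 6.51 CPM (-0.80, adjusted p = 6.57e-06), and DNAAF5 by 0.77 on the log2 scale. Without TH588 replicate B only 2 of these factors were higher.

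FOXJ1, the transcription factor that drives motile cilia, had 0 counts in 4 libraries and at most 0.0747 CPM. Of 18 motile cilium markers 9 stayed under 0.3 CPM in every library, and of the 10 tested 6 were higher and 1 was lower (24.2% and 25.3% of all genes tested). Their summed level was 16.6 to 18.9 CPM with DMSO and 22.5 to 23.2 CPM with TH588. CCDC40, the most abundant of them with DMSO, was the one called lower (7.36 ± 0.687 to 5.56 ± 0.246 CPM). RSPH4A (4.36 ± 0.271 to 6.21 ± 0.421 CPM) and RSPH1 (0.827 ± 0.162 to 3.19 ± 0.131 CPM) were among those called higher. The part of these markers in the level of DNAI3 was not tested. Of all genes tested 25.3% were lower and 49.6% were called in either direction. Of the 10 subunit genes of the Arp2/3 complex 8 did not pass and 2 were lower, ARPC1A (log2 fold change -0.43, adjusted p = 0.0129) and ACTR3 (-0.30, adjusted p = 0.0157). Both calls were lost without DMSO replicate C and with library size as the only normalization.

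Most tested genes of a broad list of phospholipases A2 rose. The list took in PNPLA genes, PAFAH2 and PLAAT3 beside the genes named PLA2G. Of 27 other phospholipase A2 genes 13 were tested, and 12 of them were higher and 1 did not pass, with a median log2 fold change of 0.82. Over all genes tested 24.2% were higher. PNPLA8, a calcium-independent enzyme of mitochondria and peroxisomes, was at 3.78, 4.42 and 4.96 CPM with DMSO and at 16.4, 13.5 and 14.4 CPM with TH588 (log2 fold change 1.74, adjusted p = 8.51e-07). PLA2G6, the calcium-independent enzyme iPLA2 beta, was at 6.89, 5.51 and 6.46 CPM with DMSO and at 19.99, 22.4 and 19.4 CPM with TH588 (1.71, adjusted p = 4.19e-07). The groups did not overlap, in one direction or the other, for any of the 13 tested genes, nor for 9149 of all 15844 genes tested. The lipid droplet enzyme PNPLA3 rose from 7.54 ± 0.534 to 14.6 ± 0.324 CPM (0.96, adjusted p = 1.73e-05), and the smallest called rise was that of the secreted PLA2G3 (0.35, adjusted p = 0.0355). Of the 27 genes, 10 were higher without TH588 replicate B and 13 without TH588 replicate A. The filter on low counts was redone in these fits, so the genes tested were not always the 13 above. The 13 higher genes do not include PLA2G4A, whose TH588 replicates B and C lay below every DMSO library.

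PLA2G4A, the calcium-dependent cytosolic enzyme and the tested gene that did not pass, was at 3.54, 4.71 and 3.47 CPM with DMSO and at 3.18, 3.38 and 3.16 CPM with TH588 (log2 fold change -0.27, adjusted p = 0.190). PLA2G4B, PLA2G4D, PLA2G4E and PLA2G4F did not exceed 0.264 CPM in any library and were not tested.

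**Figure D4:**
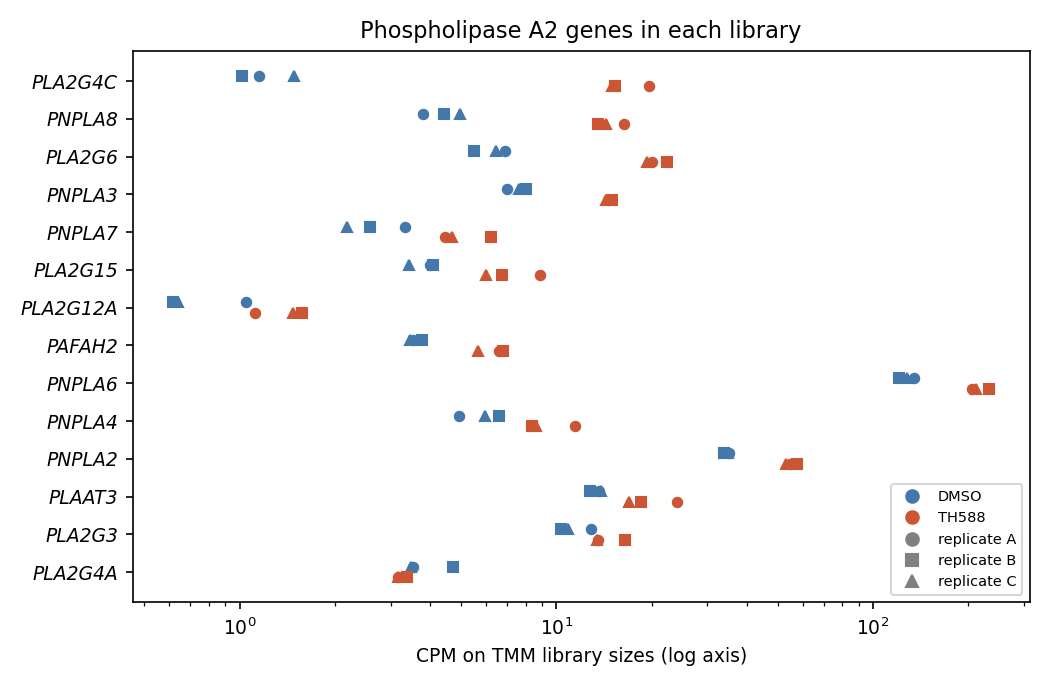
CPM of PLA2G4C and of the 13 other phospholipase A2 genes tested, in each library on a log axis, with DMSO in blue and TH588 in red and symbols for replicates A, B and C. PLA2G4C moved from 1.02 to 1.48 CPM up to 14.9 to 19.6 CPM, and PLA2G4A at the bottom is the gene that did not pass the test.

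Genes that use or take back the products of these enzymes were mixed. Of 12 tested enzymes of eicosanoid synthesis 6 were higher and 2 were lower (24.2% and 25.3% of all genes tested) and 4 did not pass, at a median of 0.92 on the log2 scale. The inducible cyclooxygenase gene PTGS2 was at 0.335 ± 0.0800 and 1.07 ± 0.0289 CPM (log2 fold change 1.68, adjusted p = 0.000550), and PTGS1 did not exceed 0.0735 CPM and was not tested. The lipoxygenase genes ALOXE3 (2.16, adjusted p = 0.00679) and ALOX15B (2.59, adjusted p = 0.0170) were scarcer still after TH588, at 0.836 ± 0.347 and 0.231 ± 0.0937 CPM, and ALOX15B lost its call without TH588 replicate A. The prostaglandin E synthase genes PTGES2 (38.6 ± 2.60 to 18.6 ± 2.93 CPM) and PTGES3 (552.2 ± 40.6 to 295.8 ± 23.9 CPM) fell by 1.06 and 0.90 on the log2 scale (adjusted p = 1.33e-05 and 5.92e-06). PTGES3 is also a cochaperone of HSP90. Among the 6 genes called higher LTA4H was the most abundant, at 124.2 ± 7.12 and 203.7 ± 18.5 CPM (log2 fold change 0.71, adjusted p = 3.21e-05).

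Of 11 tested acyltransferases, which put fatty acids back on lysophospholipids, 4 were higher and 5 were lower (24.2% and 25.3% of all genes tested) and 2 did not pass, at a median of -0.14 on the log2 scale. The largest rises were those of AGPAT1 (0.48, adjusted p = 0.00538), AGPAT4 (0.44) and LPCAT3 (0.34, adjusted p = 0.0199), and the largest falls those of MBOAT1 (-0.99, adjusted p = 0.000232), AGPAT5 (-0.49) and LPGAT1 (-0.46). Over all 10 lists together 132 genes were tested, of which 49 were higher, 29 were lower and 54 did not pass, with a median of 0.18 on the log2 scale. Of all genes tested 24.2% were higher, 25.3% were lower and 49.6% were called in either direction.

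**Figure D5:**
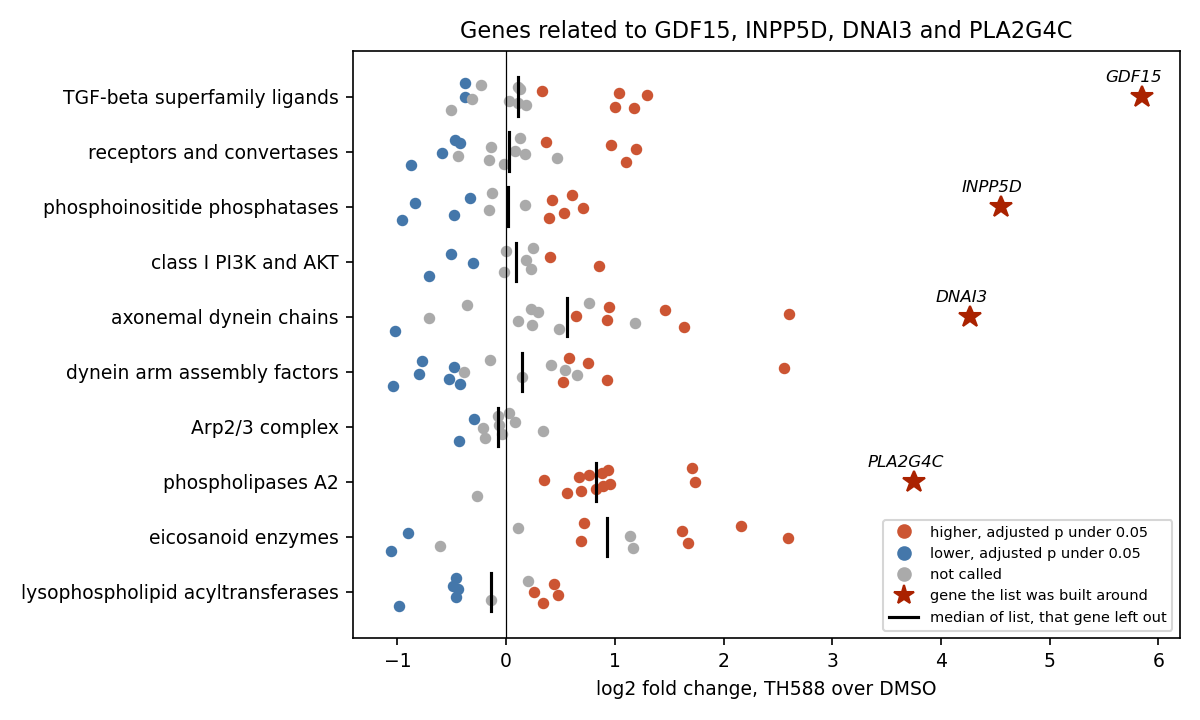
Log2 fold change (TH588 over DMSO) of the tested genes of 10 lists built around GDF15, INPP5D, DNAI3 and PLA2G4C, 1 point per gene, coloured by the edgeR call. Stars are the 4 genes and vertical bars are list medians without them. All related genes lie below a log2 fold change of 2.7, and the 4 stars lie between 3.75 and 5.85.

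By a measure that mainly follows the size of the rise, CDKN1A was the closest to 3 of the 4 genes. Likeness was the root mean square difference of log2 CPM, centred on the mean of the 6 libraries, over 9758 other well-counted genes, so a small value means a change of like size in the same libraries. The 4 genes were chosen for large rises, so the closest genes were bound to be others with large rises. The ranking therefore restates that choice and says nothing about shared control. Closest to GDF15 were CDKN1A (0.58), EGR1 (1.15) and LIF (1.18). Closest to INPP5D were CDKN1A (0.27), EGR1 (0.55) and BTG2 (0.65), and closest to DNAI3 were CDKN1A (0.29), EGR1 (0.41) and LIF (0.45). Closest to PLA2G4C were LIF (0.17), TP53INP1 (0.30) and BTG2 (0.30). EGR1, an immediate early transcription factor, went from 17.5 ± 3.86 to 203.5 ± 23.9 CPM, and TP53INP1, a p53-induced nuclear protein gene, from 2.75 ± 0.113 to 28.2 ± 0.324 CPM (SD, n = 3 each). The correlation r of log2 CPM with the matched gene was at least 0.984 in all of these pairs over the 6 libraries, but these libraries are 3 control and 3 treated ones, and between 1037 and 1156 genes had an r above 0.95 with each of the 4.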

How the data were processed

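PolyA RNA of 3 DMSO and 3 TH588 samples of A2780 cells was measured. Per the labels and the study's methods, the authors aligned reads with TopHat to GRCh38 and summed them per gene with featureCounts 1.4.6, and the deposited values are raw, unnormalized counts. Gene models are called UCSC ones in the methods, but identifiers in the table are Ensembl's, and 57754 of its 58336 genes were matched to a symbol. Of these, 99.97% overlapped the GENCODE gene of the same identifier on GRCh38. How reads matching several genes were counted is not given in the sources used here. The authors compared the groups with DESeq2, and columns of their comparison are not used here.

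Counts were compared with edgeR 4.0.16 in R 4.3.3 (TMM, default filter on low counts, quasi-likelihood test, Benjamini-Hochberg adjustment over the 15844 genes that passed the filter, threshold 0.05), without a term for the replicate letter. All adjusted p-values come from this fit. Standard errors are the absolute log2 fold change over the root of F. CPM uses TMM library sizes, and CPM per kilobase divides it by the exon length in the table. The smallest p an exact two-sided permutation test could give for 1 gene in 3 against 3 libraries is 0.1.

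The 4 genes, the 10 pathway lists, the 4 marker lists and the tests were chosen with earlier results of these data known. The genes named are the 4, the next gene below them and the genes above them, in each pathway list up to 3 of the largest rises and 3 of the largest falls among called genes, a fixed set of partners, the nearest 3 tested genes on each side, and for each gene the 3 most alike in level. CDKN1A as a gene above INPP5D, and DNAH1, DNAH10, DNAH14 and LTA4H, were named after their values were seen. The same holds for the markers TYROBP, CD37, CORO1A, CCDC40, RSPH1, RSPH4A, EPCAM, KRT18, KRT7, CDH1, PAX8, COL3A1, CD48, LCP2 and CD3E. A gene of the lists and of the fixed partners is not reported here.

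The fit was tested on simulated counts of this comparison in which 197 of 15568 genes were raised or lowered 2-fold. It recovered 141 of them (71.57%) and made 14 false calls, and of the well-counted changed genes it recovered 121 of 126. Far fewer genes were changed there than the 49.6% called in the data, so the fit was not tested under so broad a change. Total counts ranged from 28537837 to 99074175, and limits from a count of 0 (3 counts) cover counting error only. Replicates differed by more than the sampling noise (chi-square per degree of freedom 24.7 to 175.2), so each counted as 1. The alternatives were scaling by library size only or by DESeq2's size factors, removing the 10 most abundant genes, DESeq2 1.42.0, limma-voom (limma 3.58.1), a minimum of 10 counts per library, no filter, leaving out single libraries, the replicate letter as a block and an adjusted p under 0.01.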

Additional observations from a re-analysis of the deposited data

How the results depend on the processing

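The log2 fold changes of the 4 genes kept their size: with each library left out they ranged from 5.74 to 5.99 for GDF15, 4.36 to 4.92 for INPP5D, 4.21 to 4.33 for DNAI3 and 3.63 to 3.94 for PLA2G4C, and without the shallow TH588 replicate A they were 5.95, 4.63, 4.27 and 3.64. Under the other alternatives they ranged from 5.84 to 5.96, 4.53 to 4.66, 4.26 to 4.37 and 3.71 to 3.85. The 7 calls among TGF-beta superfamily ligands became 4 with DESeq2, 3 at an adjusted p under 0.01 and 4 to 5 with a library left out. The 2 calls in the Arp2/3 complex became 0 with library size only, 0 at an adjusted p under 0.01, and 0 to 3 with a library left out. The value of ELL, which did not pass the test, ranged from -0.0045 without TH588 replicate B to 0.24 with a library left out. The cause of these changes was not tested. Scaling by library size only moved the median over all genes from 0.02 to 0.13 on the log2 scale, and 60.4% of the calls over all genes were higher, against 48.9%. Over all genes 7852 calls became between 6805 and 7914 with a library left out and 5831 at an adjusted p under 0.01. Deviations of samples with the same letter from their group means correlated at -0.26, -0.35 and 0.01 for A, B and C. With so few libraries per group these deviations depend on each other, so they cannot show whether equal letters share a run. With the replicate letter as a block 7195 genes were called, 7129 of them also called without it. Of 1222 values of 82 named genes under the alternatives, 1141 kept their direction and their side of the threshold, 72 no longer passed it, 8 newly passed it and 1 turned. Calls lost with a library left out included INHBE, GDF11, DNAH12, DNAI4, LRRC56, ARPC1A, ACTR3, ALOX15B, AGPAT4, LPCAT3, SCARNA5, SYDE2, BCL10 and EHD2. Depth limits the values of the rare genes most, since 1 count in TH588 replicate A weighs more than in the other libraries.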
